A study of Homo sapiens with 36 samples.

Results

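The response of HL60 cells to daunorubicin alone was read from 6 of the 36 RNA sequencing libraries of the study. They were chosen by their labels, 3 libraries of HL60 cells treated with 0.02 µM daunorubicin for 24 h against 3 libraries of HL60 cells treated with the solvent DMSO for 24 h, all labelled as biological replicates, and were fitted with no other library. HL60 is an established line of human promyelocytic leukemia cells that is known to carry an amplified MYC gene. The study also treated MOLM13 and OCIAML3 cells, and gave cytarabine at 0.1 µM and both drugs together. It is not stated whether replicates came from separate cultures or days, so the p-values reflect only how far these samples varied, which may be technical.

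Daunorubicin is an anthracycline. It slides between the bases of DNA and traps topoisomerase II, the enzyme that cuts and rejoins both strands, so that breaks remain in the DNA. Cells with such breaks are known to slow or stop in the cell cycle before mitosis, and many cells then switch on damage-response genes such as CDKN1A, which blocks cyclin-dependent kinases. Genes needed in mitosis are switched on late in the cycle through short promoter elements named CHR and CCAAT, genes needed for DNA replication earlier through E2F sites, and most histone genes only while DNA is copied.

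The libraries held between 29132492 and 38002008 estimated counts after daunorubicin and between 30793743 and 33451123 after DMSO. Values below are counts scaled to a common library total (CPM), scaled with TMM factors over the 6 libraries, so levels of different genes are not corrected for length. The myeloid markers of the line were present. MPO, the myeloperoxidase of promyelocyte granules, was at 2392, 2596 and 3745 CPM after daunorubicin and 2851, 3634 and 3368 CPM after DMSO, and CD33, a myeloid surface protein, at 72.6 to 80.8 CPM against 71.7 to 86.1 CPM. AZU1 was at 0 in all 6 libraries and ELANE at 0.38 CPM or less, although both are granule genes of promyelocytes. HLA-E, HSPA1A and HSPA1B were also at 0 in all 6. The 16821 transcripts that matched no gene of the annotation were left out. Whether they held reads of genes at or near 0 was not tested. On the first principal component, which held 60.7% of the variance, daunorubicin replicates 1, 2 and 3 lay at 37.3, 36.6 and 11.04 and the DMSO libraries between -33.1 and -25.6. Replicate 3 of daunorubicin thus lay nearest to DMSO, and the counts below are given with and without it. Mitochondrial transcripts held 5.47% to 6.45% of counts after daunorubicin and 4.61% to 5.36% after DMSO, retained-intron transcripts 4.71% to 5.63% and 4.69% to 4.94%. The part of these 2 shares in the results was not tested.

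Daunorubicin lowered some genes of mitosis and most tested histone genes, and the promoters of 5 genes on which the description turns are shown for the elements they hold. They run from 250 bases before to 50 bases after the start of the gene, 5′ to 3′, as in RefSeq on GRCh38.p14. Capitals mark TTTGAA, the letters of the CHR element, with the CCAAT box and with TTGGCGC, the letters of an E2F site. Either strand counted, so that a CHR on the other strand reads TTCAAA. The box CCAAT on the other strand reads ATTGG. Letters of ATTGG and TTGGCGC can overlap, and in these 5 promoters they did not. CDC20 (chr1:43358731-43359030, plus strand), which activates the complex that starts anaphase, PLK1 (chr16:23678639-23678938, plus strand), a kinase of mitotic entry, and CENPF (chr1:214602945-214603244, plus strand), a kinetochore protein, fell. H2BC12 (chr6:27146809-27147108, minus strand) encodes a histone H2B and fell. E2F1 (chr20:33686336-33686635, minus strand) encodes a transcription factor of replication genes and had a small difference in the other direction.
CDC20: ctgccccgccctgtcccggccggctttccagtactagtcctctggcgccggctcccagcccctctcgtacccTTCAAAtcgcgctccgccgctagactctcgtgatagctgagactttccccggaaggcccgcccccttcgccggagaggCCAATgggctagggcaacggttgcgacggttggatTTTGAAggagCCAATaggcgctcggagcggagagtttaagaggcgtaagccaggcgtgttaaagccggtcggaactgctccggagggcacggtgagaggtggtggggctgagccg
PLK1: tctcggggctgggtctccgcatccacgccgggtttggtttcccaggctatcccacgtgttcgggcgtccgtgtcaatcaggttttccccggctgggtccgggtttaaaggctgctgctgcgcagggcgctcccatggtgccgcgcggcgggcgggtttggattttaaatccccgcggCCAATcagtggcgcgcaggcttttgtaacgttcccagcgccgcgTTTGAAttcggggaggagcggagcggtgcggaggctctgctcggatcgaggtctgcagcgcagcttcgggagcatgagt
CENPF: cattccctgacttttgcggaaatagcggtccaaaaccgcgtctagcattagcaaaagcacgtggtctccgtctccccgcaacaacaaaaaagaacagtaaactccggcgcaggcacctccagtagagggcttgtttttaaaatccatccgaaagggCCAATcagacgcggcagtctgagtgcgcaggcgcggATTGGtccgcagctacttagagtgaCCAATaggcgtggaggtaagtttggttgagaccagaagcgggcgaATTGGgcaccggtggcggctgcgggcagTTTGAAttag
H2BC12: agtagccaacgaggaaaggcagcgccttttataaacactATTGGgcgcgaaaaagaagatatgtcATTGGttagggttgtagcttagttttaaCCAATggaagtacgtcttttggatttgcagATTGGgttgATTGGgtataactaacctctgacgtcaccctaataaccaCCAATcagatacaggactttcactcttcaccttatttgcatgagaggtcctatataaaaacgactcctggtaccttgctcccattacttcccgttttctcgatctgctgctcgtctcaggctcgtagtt
E2F1: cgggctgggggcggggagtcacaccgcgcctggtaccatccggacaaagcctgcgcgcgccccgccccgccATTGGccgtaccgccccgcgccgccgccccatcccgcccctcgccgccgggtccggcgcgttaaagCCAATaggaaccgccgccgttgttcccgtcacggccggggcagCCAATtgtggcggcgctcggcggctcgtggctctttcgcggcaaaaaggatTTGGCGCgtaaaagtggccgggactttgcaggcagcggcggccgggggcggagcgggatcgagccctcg
In PLK1 the CHR began 29 bases before the start and the CCAAT 73 bases before it. In CDC20 a CHR began 65 bases before the start between CCAAT boxes at 100 and 55 bases before it. H2BC12 held CCAAT in 6 places and no CHR, and E2F1 held TTGGCGC 19 bases before its start.

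Over all tested genes, 10003 of 14181 matched a promoter of this length, and 10.1% of these held CHR on either strand. The share was 65.4% of the 78 mitosis genes with a promoter, 29.7% of the 64 called lower and 9.15% of the 623 called higher. CCAAT was in 37.0% of all promoters, in 71.8% of the mitosis genes, in 15 of 16 histone genes (93.8%) and in 27.1% of those called higher. CHR and CCAAT stood together in 4.25% of all promoters and in 39 of the 78 mitosis genes. Of the DNA replication genes, 43.8% held TTCCCGC, an E2F site, against 10.3% of all, and 28.1% held TTGGCGC against 5.08% of all. Within the mitosis genes, CHR was in 37 of the 51 that were lower at the false discovery rate alone (72.5%). It was in 51.9% of the other 27. Of the 10 called lower, which are among the 51, 6 held CHR, beside 65.4% of the whole list. The called genes CENPE, PSRC1, SGO2 and KIF20A held no CHR, and CENPE held no CCAAT either. The AP-1 site TGACTCA was in 3.05% of promoters called higher and 2.89% of all, and the ETS core AGGAAGT in 9.79% and 8.53%. These shares describe letters in a window and were not tested.

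A gene was called where its Benjamini-Hochberg false discovery rate from edgeR's quasi-likelihood test was under 0.05 and its log2 fold change, daunorubicin over DMSO, was over 1 in size. Of 14181 tested genes, 903 were called higher after daunorubicin (6.37%) and 94 lower (0.663%), 997 in all (7.03%), so that 90.6% of the calls were higher. Of the higher genes, 782 were protein-coding and 107 long non-coding, and 402 of them averaged under 1 CPM in DMSO. At the false discovery rate alone, 2016 were higher (14.2%) and 1461 lower (10.3%). In 3149 genes (22.2%) every daunorubicin library was above every DMSO library, and in 2711 (19.1%) below. Without daunorubicin replicate 3, with 14709 genes tested, 1164 were called higher (7.91%) and 150 lower (1.02%), among them 858 of the 903 and 78 of the 94. With the replicate number as a block, 978 were called higher (6.9%) and 126 lower (0.889%). Replicate 3 was the lowest daunorubicin library in 749 of the 903 higher genes and the highest in 36 of the 94 lower ones.

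The calls depended on the level of the gene. Of the 1366 protein-coding genes between 1 and 5 CPM, 26.6% were called higher and 1.68% lower, and of the 894 under 1 CPM 16.6% and 2.80%. Of the 4960 between 20 and 100 CPM, 1.55% were called higher and 0.242% lower. Above 100 CPM, 0.135% of 2216 genes were higher and 0.226% lower. The rises were thus mostly in genes of low level, whereas some of the best expressed called genes were mitosis genes that fell. The share of all genes called higher (6.37%), set beside the lists below, is not matched for level. For genes at 1 to 5 CPM it is lower than the share at their own level. The median log2 fold change of all tested genes was 0.015.

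**Figure D1:**
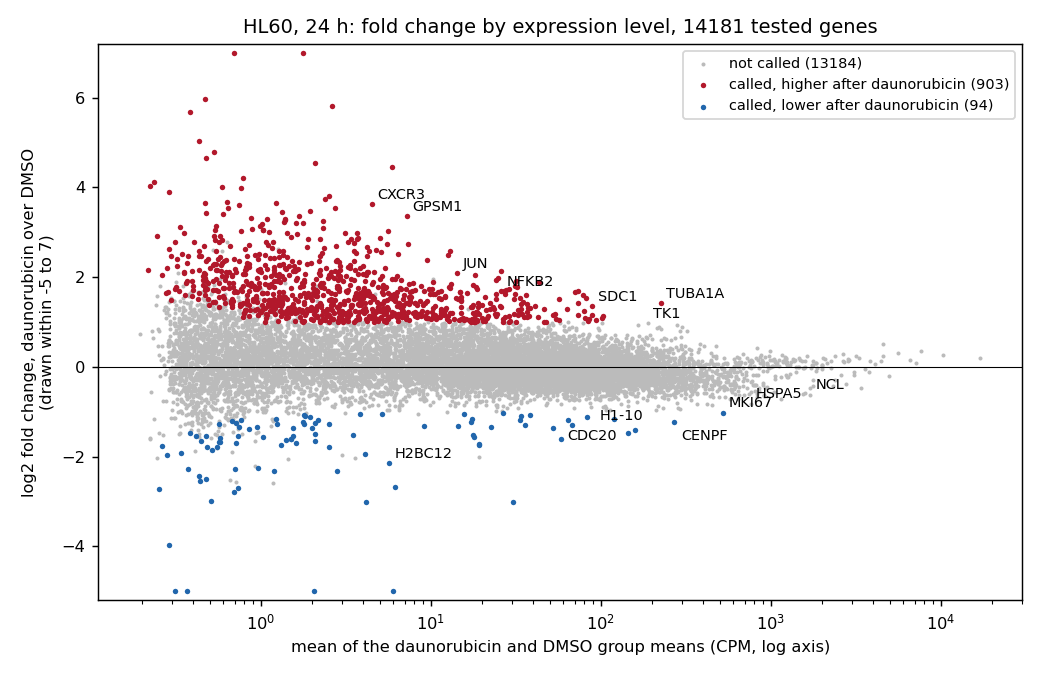
Each point is 1 of the 14181 tested genes, with the mean of both group means in CPM on a log axis against the log2 fold change, daunorubicin over DMSO, and called genes colored. The 903 genes called higher lie mostly at the low end, and CENPF, CDC20 and H1-10 are among the 94 called lower at the high end.

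Part of the mitosis genes fell. Of 91 tested genes in 4 lists (cyclins and kinases, kinetochore, kinesins and spindle, anaphase and cytokinesis), 10 were called lower and 0 higher (2 higher at an unadjusted p under 0.05 in edgeR, 0 called higher by DESeq2), beside 0.663% lower of all genes. At the false discovery rate alone 58 were lower, beside 10.3% of all genes, and 2 higher, 15 of the 91 had a positive fold, and in 65 every daunorubicin library was below every DMSO library, beside 19.1% of all genes. Their median log2 fold change was -0.41. Without daunorubicin replicate 3, 12 were called lower and 0 higher, and over all single libraries left out the number lower was 7 to 12, with 7 without daunorubicin replicate 1.

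CDC20 was at 70.9, 62.1 and 97.3 CPM after daunorubicin and 210, 213 and 218 CPM after DMSO, with a log2 fold change of -1.48 (SE 0.15, adjusted p = 0.000293 from edgeR). PLK1, the kinase whose promoter is shown above, was at 79.9, 68.9 and 72.2 CPM after daunorubicin and 165, 169 and 162 CPM after DMSO (-1.17, SE 0.09, adjusted p = 0.000142). In both genes the groups lay far apart, and replicate 3 was the highest daunorubicin library in CDC20 but not in PLK1. CENPE, the kinesin that moves chromosomes to the spindle equator (4:103105349-103198445, minus strand, GRCh38), was at 25.5, 33.2 and 27.7 CPM after daunorubicin and 93.5, 88.0 and 83.8 CPM after DMSO (-1.62, SE 0.12, adjusted p = 0.000103). CENPF was at 134, 180 and 171 CPM after daunorubicin and 362, 406 and 359 CPM after DMSO (-1.22, SE 0.12, adjusted p = 0.000293). Neither kinetochore gene had overlapping groups, and CENPE had the larger fold.

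The spindle genes gave the most calls. DLGAP5, which bundles spindle microtubules, was at 37.5, 39.0 and 41.5 CPM after daunorubicin and 102, 84.8 and 81.4 CPM after DMSO, a log2 fold change of -1.18. PSRC1, a regulator of spindle microtubules, had -1.56, and the kinesins KIF20A and KIF14, which act in cytokinesis, had -1.09 and -1.11. SGO2, a protector of centromere cohesion, fell by 1.07 on the log2 scale and MKI67, the coat protein of mitotic chromosomes, by 1.02. MKI67 was at 290, 410 and 344 CPM after daunorubicin and 571, 778 and 765 CPM after DMSO. Its groups did not overlap, but its fold lay near the threshold. The calls of KIF14 (-0.97), SGO2 (-0.93) and MKI67 (-0.90) ended without daunorubicin replicate 1, and that of MKI67 also without DMSO replicate 2 (-0.95) or DMSO replicate 3 (-0.99). With the transcript length offset the calls of KIF20A (-0.90) and MKI67 (-0.95) ended. Many partners moved by less than the fold threshold at the same false discovery rate. BUB1, a checkpoint kinase, had -0.89, CCNB1, the cyclin of mitotic entry, -0.72, AURKA, a spindle pole kinase, -0.66, and CCNB2 -0.52.

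Most of the tested histone genes fell. Of 17 tested replication-dependent histone genes 12 were called lower and 0 higher (0 at an unadjusted p under 0.05 in edgeR and 0 by DESeq2), beside 0.663% lower of all genes, with a median log2 fold change of -1.95, and in 15 the groups did not overlap, beside 19.1% of all genes lower without overlap. The 12 encode linker histones (H1-2, H1-4), H2A (H2AC6, H2AC18, H2AC20), H2B (H2BC4, H2BC5, H2BC12, H2BC17, H2BC21), H3 (H3C2) and H4 (H4C9). Without daunorubicin replicate 3 the number was 11, with any single library left out 10 to 12, and with the replicate number as a block 13. H2BC12 was at 2.03, 1.37 and 2.84 CPM after daunorubicin and 10.8, 7.76 and 9.10 CPM after DMSO (-2.15, SE 0.28, adjusted p = 0.00094). H1-2 was at 1.45, 1.96 and 1.60 CPM after daunorubicin and 9.18, 5.57 and 4.73 CPM after DMSO (-1.95, SE 0.29). H2AC6 was at 0.482, 0.349 and 0.368 CPM after daunorubicin and 2.12, 2.16 and 1.69 CPM after DMSO (-2.31). The groups of all 3 genes lay apart, at low levels. Most histone transcripts carry no poly(A) tail, whether libraries were selected for it is not given in the sources used here, and its part was not tested. Histone genes are also near copies of each other, so their counts may be split between members. The calls of H2AC18 (-1.11 without daunorubicin replicate 1, -1.04 without DMSO replicate 3), H2AC20 (-1.03 without daunorubicin replicate 2, -1.06 without DMSO replicate 1 and -1.27 without DMSO replicate 3), H2BC5 (-1.17 without daunorubicin replicate 2) and H1-4 (-1.35 without DMSO replicate 1, -1.90 without daunorubicin replicate 2 and -2.17 without daunorubicin replicate 3) ended when a library was left out. H1-10, a linker histone outside that list whose transcript is polyadenylated, was at 93.5, 76.4 and 91.3 CPM after daunorubicin and 280, 209 and 207 CPM after DMSO (-1.41, SE 0.13, adjusted p = 0.000293).

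Some genes of DNA replication were higher by small amounts. None of 38 tested was called in edgeR or DESeq2, and at an unadjusted p under 0.05 in edgeR 18 were higher and 1 lower. At the false discovery rate alone 13 were higher, beside 14.2% of all genes, and 0 lower, with a median of 0.21, and 1 was called without daunorubicin replicate 3. TK1, thymidine kinase, was at 266, 271 and 212 CPM after daunorubicin and 142, 116 and 125 CPM after DMSO (0.97, SE 0.12, adjusted p = 0.000803). CDC45, a part of the replicative helicase, was at 163, 158 and 153 CPM after daunorubicin and 108, 104 and 110 CPM after DMSO (0.56, SE 0.08). Both sets of libraries were separate with little spread. E2F1 had 0.58, CCNE2, a cyclin of S phase entry, 0.63, and CDT1, which loads the helicase, 0.59. PCNA, TYMS and RRM2 had 0.06, 0.02 and 0.22 and did not pass.

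**Figure D2:**
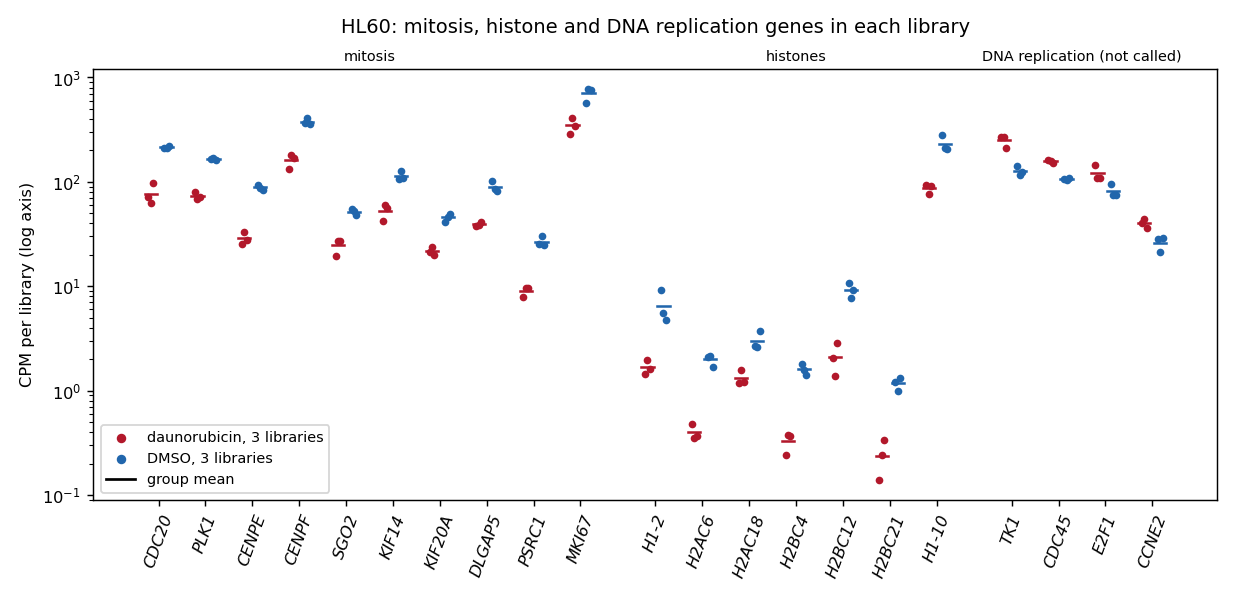
Each point is 1 library, daunorubicin left of DMSO, in CPM on a log axis, and lines are the group means of 3 libraries. All 10 mitosis genes called lower and 7 histone genes have their daunorubicin libraries below DMSO, with CENPE at 25.5 to 33.2 CPM against 83.8 to 93.5 CPM, whereas TK1, CDC45, E2F1 and CCNE2, none called, have them above.

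Repair genes and damage-response genes gave few calls. Of 33 genes of double-strand break and crosslink repair 2 were called lower, beside 0.663% of all genes, and 0 higher (7 higher at an unadjusted p under 0.05 in edgeR, 0 called higher by DESeq2). PIF1, a DNA helicase that is also known as a cell cycle gene, was at 11.02, 8.58 and 7.86 CPM after daunorubicin and 26.8, 30.9 and 21.1 CPM after DMSO (-1.52, SE 0.18, adjusted p = 0.000769). MDC1, which binds chromatin beside breaks, had -1.02 and lost its call without daunorubicin replicate 2 (-0.91), daunorubicin replicate 3 (-0.88) or DMSO replicate 2 (-0.90). The call of MDC1 was also lost with all 12 HL60 libraries in 1 edgeR fit (-1.05, adjusted p = 0.379) and with the transcript length offset (-0.99). EXO1, which resects broken ends, had 0.63. Of 25 damage-response genes 3 were called higher, beside 6.37% of all genes, and 0 lower (3 lower at an unadjusted p under 0.05 in edgeR, 0 called lower by DESeq2), with a median of 0.13, and 4 higher without daunorubicin replicate 3. CDKN1A was at 1.86, 2.71 and 0.936 CPM after daunorubicin and 0.348, 0.161 and 0.0958 CPM after DMSO, a log2 fold change of 3.18 (SE 0.55, adjusted p = 0.00339). BTG2, an antiproliferative gene, had 1.53 and FUCA1, a lysosomal fucosidase, 1.20. DDB2, a damage sensor, had 0.90 (adjusted p = 0.00305), whereas MDM2, a ubiquitin ligase, had -0.13 (adjusted p = 0.405), BAX 0.05 (adjusted p = 0.736) and ZMAT3, an RNA-binding protein, -0.39 (adjusted p = 0.0465). These genes thus moved in both directions, and CDKN1A stayed near 1 to 3 CPM.

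Some genes of leukocyte adhesion rose, most of them from low levels. Of 26 tested 9 were called higher, beside 6.37% of all genes, and 0 lower (3 lower at an unadjusted p under 0.05 in edgeR, 0 called lower by DESeq2), with a median of 0.47. That share is over all levels, and between 1 and 5 CPM 26.6% of protein-coding genes were called higher. The number was 9 without daunorubicin replicate 3 and 7 to 9 with any single library left out. ITGB7, an integrin beta chain of gut homing, was at 10.6, 11.5 and 4.61 CPM after daunorubicin and 1.29, 1.38 and 0.958 CPM after DMSO (2.87, SE 0.35, adjusted p = 0.000803). ICAM1, the ligand of leukocyte integrins, was at 8.99, 8.56 and 4.61 CPM after daunorubicin and 1.43, 1.32 and 0.926 CPM after DMSO (2.59, SE 0.31, adjusted p = 0.000769). In both, daunorubicin replicate 3 was the lowest of its group yet above every DMSO library. ITGA6, a laminin receptor chain, was at 30.8, 41.1 and 28.0 CPM after daunorubicin and 12.03, 14.6 and 14.1 CPM after DMSO (1.30). ICAM2 (1.43), ICAM4 (1.98) and ITGA2B (2.69), an integrin chain of platelets, rose too. ITGAM and ITGAX, chains of the complement receptor integrins, had 1.85 and 2.28, and both lost the call without daunorubicin replicate 2 (1.32 and 2.00) or DMSO replicate 3 (1.60 and 1.84), ITGAX also without daunorubicin replicate 1 (2.08) or DMSO replicate 2 (2.15). ITGA4, a chain of the VCAM1 receptor, had -0.43 (adjusted p = 0.0129).

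Chemokine, antigen presentation and monocyte genes rose in part. The shares of all genes given beside them are not matched for level. Of 12 tested chemokine genes 5 were called higher (CXCR3, CCR2, FPR2, CCL2, CCL5), beside 6.37% of all genes, with a median of 0.89. The number was 5 without daunorubicin replicate 3 and 1 without daunorubicin replicate 2 or DMSO replicate 2. DESeq2 did not call CCL5 (adjusted p = 0.0584 from DESeq2). CXCR3, a chemokine receptor of activated lymphocytes (X:71615916-71618511, minus strand), held its call throughout, at 10.2, 9.01 and 5.75 CPM after daunorubicin and 0.835, 0.322 and 0.862 CPM after DMSO (3.62, SE 0.37, adjusted p = 0.000346). The co-stimulatory ligand CD86 was at 6.75, 8.40 and 2.61 CPM after daunorubicin and 0.974, 0.740 and 0.735 CPM after DMSO (2.86, SE 0.41). Neither gene had overlapping groups. CD86 and TNFSF9 were the 2 of 12 called higher in antigen presentation and co-stimulation (median 0.37), beside the same 6.37%, and 3 were called without daunorubicin replicate 3. TNFSF9 (1.34) lost its call without daunorubicin replicate 1 (1.45), daunorubicin replicate 2 (1.03), DMSO replicate 2 (1.41) or DMSO replicate 3 (1.11). Of 10 monocyte and macrophage genes 3 were called (FCGR2B, CD68, TYROBP, median 0.73), beside 6.37% higher of all genes, and only CD68 (2.10), a lysosomal protein of macrophages, was called when daunorubicin replicate 1 or 2 or DMSO replicate 2 or 3 was left out. Of 19 granule genes 2 were called higher, beside 6.37% of all genes. CYBB, the catalytic chain of the NADPH oxidase, was at 14.9, 20.1 and 5.52 CPM after daunorubicin and 5.15, 3.32 and 3.19 CPM after DMSO (adjusted p = 0.00953). Without daunorubicin replicate 3, 5 granule genes were called higher and 1 lower. The granule genes MPO (-0.17), PRTN3 (-0.71) and CTSG (0.27) did not pass.

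Transcription factor and cytokine genes of AP-1 and NF-kB also rose in part, again beside shares of all genes that are not matched for level. Of 21 AP-1 and immediate early genes 4 were called higher (FOSB, JUN, ATF3, KLF2), beside 6.37% of all genes, with a median of 0.29, and 4 without daunorubicin replicate 3. With the replicate number as a block 5 were called, FOS among them. JUN was at 19.5, 36.2 and 13.3 CPM after daunorubicin and 4.69, 7.37 and 4.15 CPM after DMSO (2.09, SE 0.34, adjusted p = 0.00264). FOSB, its partner, had 1.76. ATF3 (1.05) and KLF2 (2.51) lost their calls without daunorubicin replicate 1 (0.97 and 2.19), daunorubicin replicate 2 (0.95 and 2.50), DMSO replicate 1 (1.01 and 2.53) or DMSO replicate 3 (0.80 and 1.90). FOS and EGR1 had 1.09 (adjusted p = 0.0898) and -0.56 (adjusted p = 0.399), and with the block FOS had 1.18 (adjusted p = 0.0124). Of 19 NF-kB and cytokine genes 4 were called (NFKB2, TNFAIP2, TRAF1, IL1RN), beside 6.37% higher of all genes, with a median of 0.78, and 5 without daunorubicin replicate 3 or with the block. NFKB2, a subunit of the factor, was at 49.2, 41.7 and 27.5 CPM after daunorubicin and 15.1, 10.2 and 11.5 CPM after DMSO (1.69, SE 0.21, adjusted p = 0.00094). TNFAIP2, a target of TNF signaling, had 1.30. TRAF1 and IL1RN lost their calls without daunorubicin replicate 1 (1.62 and 1.91) or replicate 2 (1.71 and 2.11), and IL1RN without DMSO replicate 3 (adjusted p = 0.0588). The inhibitor NFKBIA had 0.22 (adjusted p = 0.579). IL6, TNF, EGFR and IRF8 had no counts in any of the 6 libraries, which allows up to 3 counts or 0.0805 to 0.103 CPM per daunorubicin library and 0.0958 to 0.104 CPM per DMSO library, for counting error only.

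Some interferon-stimulated genes rose at low levels. Of 23 tested 8 were called higher, beside 6.37% of all genes, and 0 lower (0 lower at an unadjusted p under 0.05 in edgeR and 0 called lower by DESeq2), in 14 the daunorubicin libraries were above all DMSO libraries, beside 22.2% of all genes, and the median was 0.93. The number was 9 without daunorubicin replicate 3, 7 to 9 with any single library left out and 10 with the replicate number as a block. OAS3, an enzyme that senses double-stranded RNA, was at 15.4, 21.8 and 10.8 CPM after daunorubicin and 4.63, 5.41 and 5.53 CPM after DMSO (1.63, SE 0.24, adjusted p = 0.00165). MX2, an antiviral GTPase, was at 8.33, 6.38 and 4.01 CPM after daunorubicin and 1.91, 2.12 and 1.47 CPM after DMSO (1.76). The groups of both were separate at these low levels. GBP2, another GTPase, had 2.25, TRIM22, an antiviral ligase, 2.12, and IFI6, CMPK2 and USP18 had 1.41, 1.36 and 1.20. APOBEC3G (3.32), a cytidine deaminase, lost its call without daunorubicin replicate 1 (2.98), daunorubicin replicate 2 (3.03) or DMSO replicate 2 (3.34). ISG15 (0.36) and IFIT1 (0.66) did not pass.

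**Figure D3:**
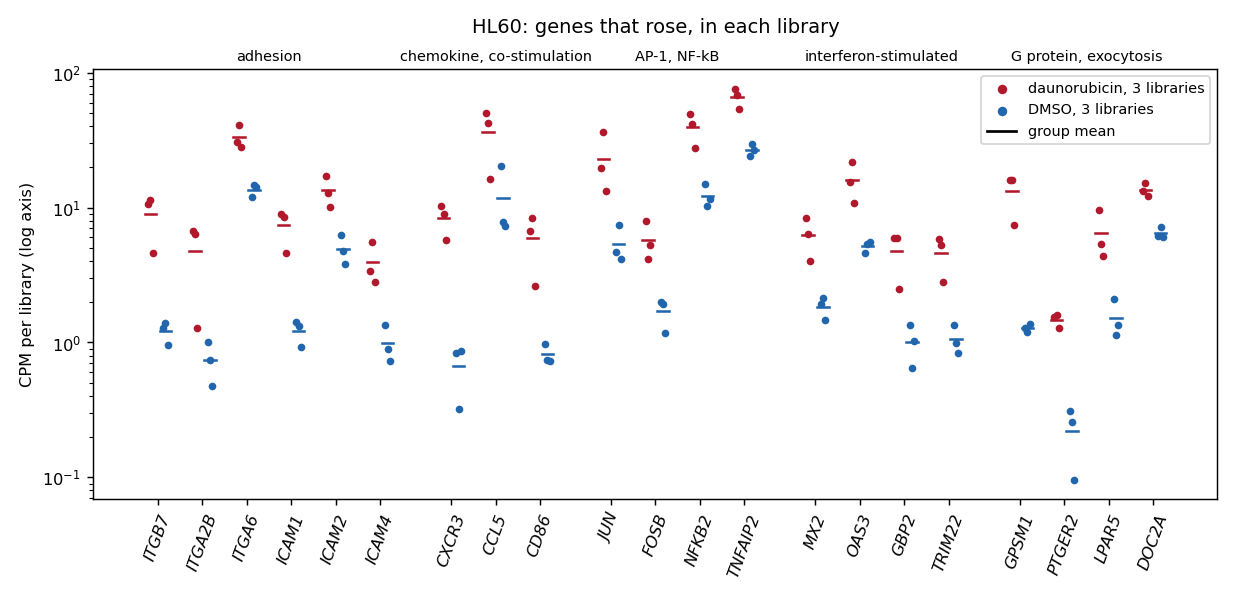
Each point is 1 library, daunorubicin left of DMSO, in CPM on a log axis for genes of 5 groups of lists that rose, and lines are group means of 3 libraries. The daunorubicin libraries of JUN (13.3 to 36.2 CPM) and NFKB2 (27.5 to 49.2 CPM) lie above all DMSO libraries, whereas 1 daunorubicin library of CCL5 (16.3 CPM) lies below its highest DMSO library (20.4 CPM).

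Signaling and secretion genes gave scattered calls, and the shares of all genes given beside them are not matched for level. Of 30 genes of G protein signaling 6 were called higher (median 0.26), beside 6.37% of all genes, and 6 without daunorubicin replicate 3, beside 7.91%. GPSM1, an activator of G proteins (9:136327476-136359605, plus strand), was at 16.1, 16.1 and 7.39 CPM after daunorubicin and 1.29, 1.19 and 1.37 CPM after DMSO (3.36, SE 0.31, adjusted p = 0.000293). RGS16, which shortens G protein signals, was at 50.7, 57.1 and 48.5 CPM after daunorubicin and 21.8, 25.4 and 23.5 CPM after DMSO (1.15). GPSM1 was low in replicate 3 of daunorubicin and RGS16 was not. PTGER2, a prostaglandin receptor, had 2.72 and LPAR5, a lysophosphatidic acid receptor, 2.08. RGS3 (1.96) lost its call without daunorubicin replicate 1 (1.85), daunorubicin replicate 2 (1.74), DMSO replicate 2 (1.51) or DMSO replicate 3 (2.04), and GPR84 (1.00) stood at the threshold and lost its call without daunorubicin replicate 1 (0.96), daunorubicin replicate 2 (0.97), DMSO replicate 1 (0.99) or DMSO replicate 2 (0.95). Of 21 genes of calcium-dependent exocytosis 4 were called higher (DOC2A, RPH3AL and SYTL2 among them), beside 6.37% of all genes, with a median of 0.54. In 10 every daunorubicin library was above DMSO, beside 22.2% of all genes. The number called was 4 without daunorubicin replicate 3 and 1 without daunorubicin replicate 2. DOC2A, a calcium sensor of vesicle fusion, was at 13.3, 15.2 and 12.1 CPM after daunorubicin and 6.19, 7.21 and 6.01 CPM after DMSO (1.07, SE 0.17). Its groups were separate, and its call ended without daunorubicin replicate 2 (0.97) or DMSO replicate 3 (0.98).

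Of 34 PI3K and AKT genes 2 were called higher, beside 6.37% of all genes, among them PIK3R6 (1.16), a regulatory subunit of PI3K gamma, and 0 lower (6 lower at an unadjusted p under 0.05 in edgeR, 0 called lower by DESeq2), with a median of 0.015 and 10 genes with every daunorubicin library above DMSO, beside 22.2% of all genes. Without daunorubicin replicate 3, 4 were called. PIK3R6 was at 18.3, 20.5 and 10.5 CPM after daunorubicin and 7.30, 9.14 and 5.59 CPM after DMSO, and lost its call without daunorubicin replicate 2 (0.97) or DMSO replicate 3 (0.96). PIK3C2B, a class II kinase, had 0.95 and IRS2, an insulin receptor substrate, -0.75 (adjusted p = 0.0135), so members lay on both sides. Of 31 genes of EGFR, RAS and ERK signaling DUSP4 (1.11), an ERK phosphatase, was called higher, beside 6.37% of all genes, with a median of -0.18. It lost the call without daunorubicin replicate 2 (0.99), DMSO replicate 1 (0.95) or DMSO replicate 3 (1.04), 3 genes of the list were called without daunorubicin replicate 3 and 2 with the replicate number as a block.

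Of 24 genes of the BCL2 family and caspases 2 were called higher, a share near the 6.37% of all genes, with a list median of 0.03 and 3 called without daunorubicin replicate 3. BMF, a pro-apoptotic BH3 protein, was at 24.8, 26.3 and 16.4 CPM after daunorubicin and 6.75, 6.89 and 7.67 CPM after DMSO (1.66, SE 0.19, adjusted p = 0.000609). BIK, another BH3 protein, was at 24.2, 31.7 and 24.9 CPM after daunorubicin and 8.80, 12.7 and 10.7 CPM after DMSO (1.33). Both had separate groups, and BCL2 itself, which opposes them, had -0.41 (adjusted p = 0.0243). Among 20 genes of anthracycline targets, reductases and efflux 1 was called higher, HMOX1 (2.41), heme oxygenase, a share near the 6.37% of all genes. HMOX1 was at 0.535 to 1.37 CPM after daunorubicin and 0.0966 to 0.224 CPM after DMSO, and lost its call without daunorubicin replicate 2 (2.03). The drug targets TOP2A (-0.67, adjusted p = 0.00149) and TOP2B (-0.44, adjusted p = 0.00799) were below the fold threshold. TOP2A was at 347, 412 and 394 CPM after daunorubicin and 632, 619 and 584 CPM after DMSO. CBR1, a carbonyl reductase that metabolizes the drug, had 0.34 (adjusted p = 0.0241) and ABCC1, an efflux pump, 0.21 (adjusted p = 0.324).

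Many ribosome biogenesis and chaperone genes were lower by less than the fold threshold. Of 23 ribosome biogenesis genes none was called in edgeR or DESeq2, 18 were lower and 0 higher at an unadjusted p under 0.05 in edgeR, 16 lower at the false discovery rate alone, beside 10.3% of all genes, and the median was -0.47, with 1 called lower without daunorubicin replicate 3. NCL, nucleolin, was at 1152, 1228 and 1660 CPM after daunorubicin and 2025, 2041 and 2135 CPM after DMSO (-0.62, SE 0.13, adjusted p = 0.00862). Of 22 chaperone genes none was called in edgeR or DESeq2, and 14 were lower and 0 higher at an unadjusted p under 0.05 in edgeR. At the false discovery rate alone 11 were lower, beside 10.3% of all genes, and the median was -0.39, with 1 called lower without daunorubicin replicate 3. HSPA5, the chaperone of the endoplasmic reticulum, was at 444, 489 and 713 CPM after daunorubicin and 922, 1025 and 969 CPM after DMSO (-0.83, SE 0.16, adjusted p = 0.00504). In NCL and HSPA5 replicate 3 was the daunorubicin library nearest to DMSO. Of 28 chromatin genes GMEB1 alone was called lower, beside 0.663% of all genes, and 2 were called lower without daunorubicin replicate 3, beside 1.02%. The list median was -0.23. GMEB1, a DNA-binding modulator of glucocorticoid response, was at 11.4, 7.16 and 8.06 CPM after daunorubicin and 31.0, 29.7 and 27.6 CPM after DMSO (-1.73, SE 0.18, adjusted p = 0.000339). Of 31 genes of cholesterol and fatty acid synthesis none was called in edgeR or DESeq2, and at an unadjusted p under 0.05 in edgeR 6 were higher and 3 lower.

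**Figure D4:**
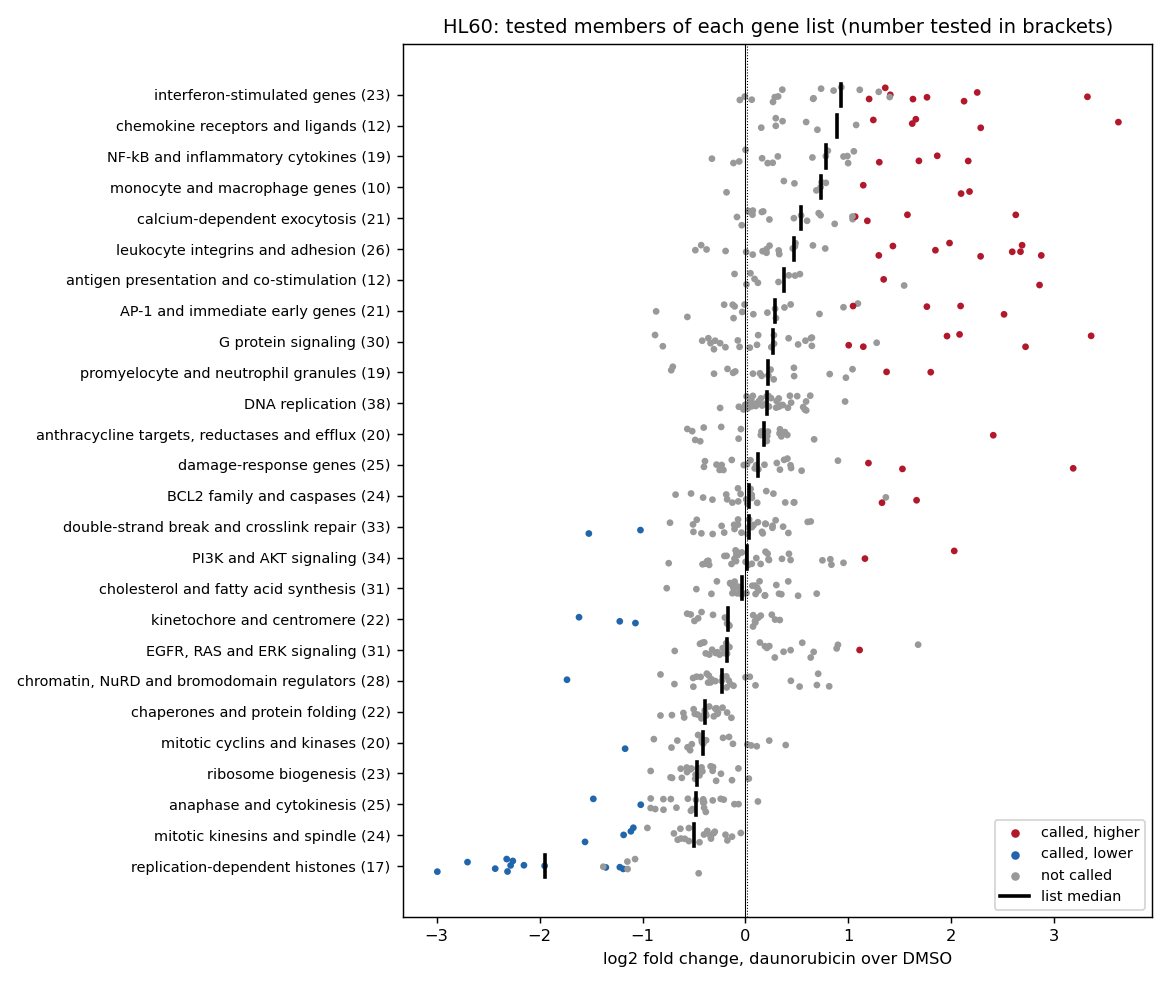
Each point is a tested member of a gene list at its log2 fold change, daunorubicin over DMSO, black bars are list medians and the dotted line is the median of all tested genes (0.015). Of the lists drawn, which leave out the cell type markers, the histone list lies lowest with a median of -1.95 and the interferon-stimulated list highest with 0.93.

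Markers of other cell types were low, apart from CD4, TFRC and NFE2, but in part moved with the groups. Their part in the rises of immune genes was not tested. Beside the marker counts that follow, 6.37% of all genes were called higher. Of 16 markers of T and NK cells 4 were tested and 2 called higher, NKG7 (1.48) and PRF1 (2.31). Their summed level was 361 to 396 CPM after daunorubicin and 310 to 333 CPM after DMSO, nearly all of it CD4 at 343 to 371 CPM and 299 to 323 CPM, while CD3D, CD3G, KLRD1 and GZMB had no counts in any library. Of 10 B cell markers CD79A (1.51) and PAX5 (1.92) were tested and called higher, with sums of 8.06 to 11.9 CPM against 3.06 to 3.38 CPM, while MS4A1, BLK, IGHM, JCHAIN and VPREB1 had none. Of 11 neuronal markers 3 were tested and ENO2 (1.23) and GAD1 (1.45) called higher, with sums of 8.09 to 12.6 CPM against 3.93 to 5.46 CPM, and NEFL, NEFM, GAP43 and STMN2 had none. GAD1 lost its call without daunorubicin replicate 1 (1.22), daunorubicin replicate 2 (1.38) or DMSO replicate 3 (1.26). Of 13 epithelial and fibroblast markers 3 were tested and COL1A1 (2.83) was called, with sums of 3.44 to 4.86 CPM against 1.76 to 3.69 CPM and EPCAM, KRT19, COL1A2, COL3A1 and DCN at none. Megakaryocyte markers summed to 63.5 to 82.5 CPM against 49.97 to 61.2 CPM, with PF4, PPBP and GP9 at none. Nearly all of that sum was NFE2, not called, at 58.8, 79.6 and 66.1 CPM after daunorubicin and 46.1, 58.3 and 52.0 CPM after DMSO. Erythroid markers summed to 728.5 to 875.8 CPM against 1014 to 1046 CPM, nearly all of it TFRC, with the hemoglobin genes HBA1, HBA2, HBB, HBG1 and HBG2 at none. Other members had few counts. CD3E was at 0.551, 0.483 and 0.100 CPM after daunorubicin and 0, 0.0644 and 0 CPM after DMSO. CD79B was at 0.241, 0.295 and 0.0334 CPM against 0, 0.0322 and 0 CPM. RBFOX3, a neuronal marker, lay the other way, at 0.0689 to 0.167 CPM against 0.209 to 0.354 CPM. Some defining markers of each of these cell types were thus without counts and others had few, while some markers of several lineages were called higher from low levels. Of protein-coding genes, 26.6% between 1 and 5 CPM and 16.6% under 1 CPM were called higher.

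Among called genes whose groups did not overlap and whose higher group averaged 5 CPM or more, the largest rises were in genes of several kinds. CDK7 also met this rule and is given further on, since its counts are uncertain. After CXCR3 (3.62), ADAMTS14, a protease that trims procollagen, was at 5.72, 7.16 and 2.24 CPM after daunorubicin and 0.452, 0.258 and 0.575 CPM after DMSO (3.55, SE 0.47). PPP1R16B, a phosphatase subunit, was at 10.6, 13.1 and 6.25 CPM after daunorubicin and 1.25, 1.19 and 1.21 CPM after DMSO (3.04, SE 0.29, adjusted p = 0.000293). CSPG5, a proteoglycan of the nervous system, was at 6.82, 7.43 and 5.12 CPM after daunorubicin and 0.730, 0.805 and 1.15 CPM after DMSO (2.84, SE 0.28). Of these, CSPG5 varied least between the daunorubicin libraries. Also among the 15 largest rises were DPYSL5 (2.98), a neuronal phosphoprotein, GJB2 (2.88), a gap junction protein, PROCR (2.79), the protein C receptor, NHSL2 (2.75), PAQR8 (2.74), a membrane progesterone receptor, and EMID1 (2.73). KLHDC7B (2.97) lost its call without daunorubicin replicate 1 (2.28). From under 1 CPM in DMSO, SLC43A2 (4.56), an amino acid transporter, was at 4.68, 4.64 and 2.61 CPM after daunorubicin and 0.243, 0.258 and 0 CPM after DMSO. ACKR2 (4.21), a chemokine scavenger, was at 2.10, 1.58 and 0.802 CPM after daunorubicin and 0.104, 0.0966 and 0.0319 CPM after DMSO. ACE (4.80), the angiotensin-converting enzyme, was at 1.24, 1.29 and 0.535 CPM after daunorubicin and 0.0348, 0 and 0.0639 CPM after DMSO. The DMSO libraries of these 3 genes lay near or under the floor of 3 counts, so their fitted folds depend on few counts.

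Of the best expressed called genes, 2 rose with little spread and kept their calls when any single library was left out. SDC1, the cell surface proteoglycan syndecan (2:20200797-20225433, minus strand), was at 130, 127 and 128 CPM after daunorubicin and 47.6, 51.4 and 51.6 CPM after DMSO (1.35, SE 0.09, adjusted p = 7.19e-05). TUBA1A, an alpha tubulin (12:49184686-49189080, minus strand), was at 341, 335 and 309 CPM after daunorubicin and 142, 116 and 109 CPM after DMSO (1.42, SE 0.11, adjusted p = 0.000142). In both, replicate 3 lay with the other daunorubicin libraries. Tubulin genes are near copies, which can share reads. VIM (1.15), the intermediate filament vimentin, lost its call without DMSO replicate 2 (0.97), ABCA2 (1.10), a lipid transporter, without daunorubicin replicate 1 (0.98) or DMSO replicate 1 (1.00), and CARD9 (1.05), an adaptor of fungal sensing, without daunorubicin replicate 1 (0.89) or DMSO replicate 3 (0.99). Among genes outside the lists that fell, NEFH, a neurofilament, was at 7.30, 7.16 and 12.3 CPM after daunorubicin and 27.1, 28.6 and 32.8 CPM after DMSO (-1.73, SE 0.21). STAG1, a cohesin subunit, was at 22.5, 26.2 and 39.0 CPM after daunorubicin and 69.5, 75.9 and 79.2 CPM after DMSO (-1.36, SE 0.17).

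Some called genes rest on uncertain counts and are given without a fold. FAM120B was at 0 in all daunorubicin libraries and at 13.2, 14.002 and 8.66 CPM after DMSO, but a transcript of the same length of 5155 bases that matched no gene of the annotation had 936, 1302 and 1078 counts after daunorubicin and 314, 416 and 421 after DMSO. ALOX5, the 5-lipoxygenase gene, was at 5.10, 4.13 and 1.37 CPM after daunorubicin and 0 in all DMSO libraries, while an unmatched transcript of the same length of 2519 bases had 403, 1844 and 647 counts after daunorubicin and 1125, 0 and 848 after DMSO. Whether reads moved between such transcripts was not tested. CDK7 was at 23.8, 9.09 and 1.00 CPM after daunorubicin and 0.696, 0.418 and 0.415 CPM after DMSO. SLC39A7 (0 to 12.04 CPM against 23.2 to 79.4 CPM), KBTBD11 (0 to 2.31 CPM against 4.02 to 10.6 CPM) and PDCD6-AHRR (0 to 2.76 CPM against 6.16 to 19.1 CPM) also varied over 10-fold within a group or stood at 0 in 1 daunorubicin library. SENP3-EIF4A1 is a readthrough of neighboring genes with which it shares reads.

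The same dose and time in MOLM13, a line of acute monocytic leukemia cells, gave a test of which responses differed between the lines, as the difference of the log2 effects, HL60 minus MOLM13, over 12 libraries. In the paper's viability assay, daunorubicin at this dose and time killed most MOLM13 cells but few HL60 cells. The cultures compared thus differed in survival, and its part in the differences was not tested. Of 16412 genes 1001 had a positive difference past both thresholds (6.1%) and 448 a negative one (2.73%). Daunorubicin replicate 2 of MOLM13 stood apart, with CDC20 at 5.40 CPM against 34.5 and 45.9 CPM in replicates 1 and 3, and without it the numbers were 948 of 16910 (5.61%) and 381 (2.25%). Levels below are CPM scaled over these 12 libraries, as means ± SD of 3 libraries. List counts and medians below cover only members that were also tested against DMSO in HL60, whereas values for all genes cover all 16412.

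Some histone genes lay on opposite sides of DMSO in the lines. H2BC12 was at 2.05 ± 0.732 CPM after daunorubicin and 9.12 ± 1.51 CPM after DMSO in HL60, and at 60.7 ± 26.2 CPM after daunorubicin and 10.8 ± 2.32 CPM after DMSO in MOLM13, a difference of -4.66 (SE 0.44, adjusted p = 4.16e-05 from edgeR) and of -4.26 without daunorubicin replicate 2 of MOLM13. H2AC6 was at 0.393 and 1.97 CPM after daunorubicin and DMSO in HL60, and at 64.5 and 6.41 CPM in MOLM13, a difference of -5.65 (-5.28 without that library). Of 17 histone genes 11 had a negative difference with all libraries and without that library, beside 2.73% of all genes, and the median of the list was -3.20, beside 0.021 for all genes. The others did not pass, and H2AC20 was lower after daunorubicin on average in both lines, at 1.05 and 2.45 CPM after daunorubicin and DMSO in HL60 and 0.231 and 1.22 CPM in MOLM13 (1.15, adjusted p = 0.123). The damage-response genes differed in the same direction, with 12 of 25 negative in both sets, beside 2.73% of all genes with all libraries, and a median of -1.004. ZMAT3 was at 18.4 ± 1.78 CPM after daunorubicin and 24.2 ± 1.90 CPM after DMSO in HL60, and at 142 ± 12.1 CPM and 31.4 ± 7.77 CPM in MOLM13 (-2.57, SE 0.22, adjusted p = 2.3e-05). CDKN1A had a similar fold in both lines at very different levels, 1.81 and 0.200 CPM after daunorubicin and DMSO in HL60 and 1616 and 178 CPM in MOLM13, with a difference of 0.03 (SE 0.49, adjusted p = 1.00).

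DNA replication genes differed the other way. Of 38 genes 37 had a positive difference, beside 6.1% of all genes, and 36 without daunorubicin replicate 2 of MOLM13, beside 5.61%. The list median was 2.01, beside 0.021 for all genes. TK1 was at 246 ± 31.7 CPM after daunorubicin and 126 ± 13.4 CPM after DMSO in HL60, and at 40.7 ± 26.1 CPM and 115 ± 17.8 CPM in MOLM13 (2.45, SE 0.56, adjusted p = 0.00725, and 2.01 without that library). E2F1 was at 120 ± 20.5 CPM and 80.7 ± 12.2 CPM in HL60, and at 10.7 ± 7.16 CPM and 52.0 ± 4.89 CPM in MOLM13 (2.85, or 2.42 without that library). CDC45 (2.67) and CCNE2 (3.38) gave 2.24 and 2.98 without it. Both lines thus had separate groups in these genes, on opposite sides of DMSO. Of the 91 mitosis genes 23 had a positive difference, beside 6.1% of all genes, and 25 without that library, beside 5.61%. Their median was 1.14, beside 0.021 for all genes. For CENPE the difference was 0.04 (SE 0.61, adjusted p = 1.00) and for CDC20 1.05 (SE 0.64, adjusted p = 0.27), with standard errors that leave room for differences past the threshold.

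Of the genes that rose most in HL60, GPSM1 was at 12.99 ± 4.93 CPM after daunorubicin and 1.27 ± 0.0909 CPM after DMSO in HL60, and at 0.103 and 0.267 CPM in MOLM13, where it was near the floor. The difference was 4.68 (SE 0.66, adjusted p = 0.000424). CSPG5 was at 6.36 ± 1.17 CPM and 0.886 ± 0.221 CPM in HL60, and at 0.302 ± 0.0784 CPM and 2.48 ± 0.705 CPM in MOLM13 (5.87, SE 0.45). JUN was at 22.7 ± 11.6 CPM and 5.35 ± 1.70 CPM in HL60, and at 1.39 ± 0.197 CPM and 3.14 ± 1.62 CPM in MOLM13 (3.26, SE 0.58, adjusted p = 0.00174). TUBA1A was at 323 ± 15.4 CPM and 121 ± 17.7 CPM in HL60, and at 93.2 ± 10.0 CPM and 96.8 ± 20.5 CPM in MOLM13 (1.47, SE 0.20).

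**Figure D5:**
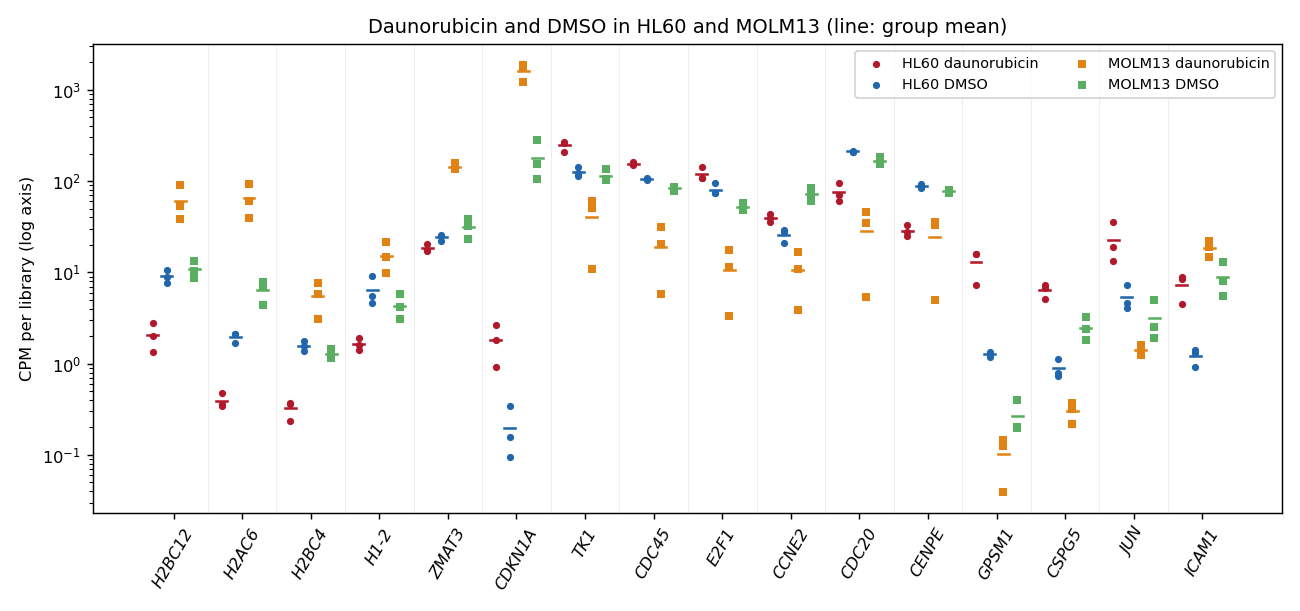
Each point is 1 library in CPM on a log axis and lines are means of 3 libraries, with, from left to right for each gene, HL60 daunorubicin, HL60 DMSO, MOLM13 daunorubicin and MOLM13 DMSO. H2BC12 and H2AC6 lie below DMSO after daunorubicin in HL60 and above it in MOLM13, and TK1, CDC45, E2F1 and CCNE2 the reverse. Libraries at 0 are not drawn.

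Daunorubicin was also set directly against cytarabine in HL60, in a fit of the 3 libraries of each drug, since both drugs have DMSO as their only control. Cytarabine is a nucleoside analog that stops DNA synthesis, and it was given at 0.1 µM for 24 h, so the doses were not matched. Of 14687 genes 86 were higher after daunorubicin than after cytarabine (0.586%) and 454 lower (3.09%). The lower genes included inflammatory ones, with 11 of 19 NF-kB and cytokine genes (median -1.64) and 12 of 21 AP-1 and immediate early genes (median -1.31), beside -0.013 for all genes. These list counts and medians cover only members that were also tested against DMSO, so TNF is not among them. The values for all genes cover all 14687. CXCL8, a neutrophil chemokine, was at 11.2, 15.4 and 2.83 CPM after daunorubicin and 803, 179 and 552 CPM after cytarabine (-5.69, SE 0.67, adjusted p = 0.00273 from edgeR). CDKN1A was at 2.00, 2.86 and 1.00 CPM after daunorubicin and 45.5, 37.0 and 44.2 CPM after cytarabine (-4.41, SE 0.29, adjusted p = 0.000548). ICAM1 was at 9.65, 9.05 and 4.93 CPM after daunorubicin and 49.9, 48.9 and 72.2 CPM after cytarabine (-2.85). TNF had no counts after daunorubicin and 54.6, 48.0 and 15.6 CPM after cytarabine. Its mean after cytarabine, 39.4 CPM, was 390-fold the floor of 3 counts per library (0.101 CPM). CXCL10, an interferon-induced chemokine, also had no counts after daunorubicin, and its mean after cytarabine was 97.3-fold that floor. Both ratios rest on the mean of 3 libraries, and transcripts that matched no gene were not counted. The groups of these genes did not overlap.

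In the other direction PRTN3, the proteinase of neutrophil granules, was at 569, 790 and 1443 CPM after daunorubicin and 89.3, 146 and 156 CPM after cytarabine (2.84, SE 0.33, adjusted p = 0.00273). P2RY2, a nucleotide receptor, was at 138, 120 and 234 CPM after daunorubicin and 49.8, 70.6 and 64.1 CPM after cytarabine (1.41). RAB3A, a GTPase of secretory vesicles, had 2.00 and MZB1, a chaperone of plasma cells, 1.38. Some mitosis and histone genes were close in level after both drugs, and others were not. CENPF was at 144, 190 and 182 CPM after daunorubicin and 154, 174 and 167 CPM after cytarabine, a difference of 0.06 (SE 0.12, adjusted p = 0.783), CDC20 differed by 0.29 (SE 0.16, adjusted p = 0.241) and H2BC12 by 0.10 (SE 0.34, adjusted p = 0.871). No difference in these 3 genes was detectable with this spread. CENPE was at 27.4, 35.1 and 29.6 CPM after daunorubicin and 45.5, 46.9 and 47.8 CPM after cytarabine (-0.61, SE 0.12, adjusted p = 0.0146), a difference under the fold threshold. H2BC21 (-1.87, SE 0.64, adjusted p = 0.079) and H2AC6 (-1.23, SE 0.47, adjusted p = 0.108) had larger differences that did not pass.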

How the data were processed

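Total RNA was extracted with Trizol and sequenced as unstranded paired-end libraries. The authors quantified reads with Salmon 1.8.0 against Ensembl transcripts of GRCh38 after FastQC 0.11.9 and deposited estimated counts per transcript, which are not normalized. The deposited TPM values, which Salmon computed from counts and effective lengths, were used here only for a transcript length offset. The paper summed counts per gene and tested them with edgeR 3.38.1. Not given in the sources used here are the Ensembl release and how ribosomal RNA was kept out of the libraries.

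Of 252199 transcripts per library, 235378 matched 59041 genes of GENCODE v44 by identifier and 16821 were left out, which held 4.0% to 4.2% of the counts. The estimated counts of a gene's transcripts were added up and rounded to whole numbers. Genes passed filterByExpr (min.count 10, min.total.count 15), were scaled by TMM and were fitted with edgeR 4.0.16 (glmQLFit with legacy=TRUE, glmQLFTest) in R 4.3.3 on the 6 libraries alone. The standard error (SE) is the size of the log2 fold change over the square root of F. HL60 and MOLM13 were compared as an interaction over 12 libraries, and daunorubicin and cytarabine over 6. Alternatives were DESeq2 1.42.0, RLE scaling, no filter, a stricter filter of 1 CPM in 3 libraries, the newer quasi-likelihood, all 12 HL60 libraries, the length offset, protein-coding genes, no fold threshold, the replicate number as a block and each library left out. The tests ran on simulated counts first. Plots were drawn with matplotlib 3.10.9 from tables made in Python 3.11.15 with pandas 2.3.3 and numpy 2.4.6.

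Every pair of replicates differed by more than sampling noise (chi-square per gene 15.4 to 30.3). Deviations of same-numbered libraries from their group means correlated at 0.281 to 0.345 and of other pairs at -0.204 to -0.0566. Same-numbered libraries thus varied together in part, although the labels do not say what a shared number means. Deviations from a mean of 3 libraries cancel out, so these correlations are not independent of each other. The pairing was not tested. The blocked fit was an alternative because the paper states no block.

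The members and lists were chosen with earlier results of these data known. Named are, for protein-coding genes, the 15 largest rises and the 15 largest falls among calls with separate groups and 5 CPM or more in the higher one, the 10 largest rises from under 1 CPM in DMSO, the 10 best expressed calls, called list members, genes the paper or an earlier report names, and for the other comparisons the 10 largest differences in each direction. Further genes not called were added after their values were seen, and so were uncalled members given as examples. Examples within the rule were chosen with some preference for calls that held when a library was left out. Some genes under these rules are not reported here, and they remain in the counts of their lists. OCIAML3 and the combination were not used here.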

Additional observations from a re-analysis of the deposited data

Results flagged for a closer look

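The daunorubicin effect differed between HL60 and MOLM13, among others, in 35 genes with a mean of 1 CPM or more in an HL60 group by the edgeR interaction test (false discovery rate under 0.05, log2 difference over 1 in size), and the value after each gene is HL60 minus MOLM13 on the log2 scale. The difference was negative in the histone genes H2AC6 (-5.65), H2BC5 (-4.72), H2BC12 (-4.66), H2BC21 (-4.59), H2BC4 (-4.37), H1-2 (-3.78), H2BC17 (-3.23) and H2AC18 (-3.20), in ZMAT3 (-2.57) and GMEB1 (-1.01). It was positive in the replication and repair genes CDT1 (2.14), TK1 (2.45), CDC45 (2.67), EXO1 (2.75), E2F1 (2.85) and CCNE2 (3.38). It was also positive in the receptor, signaling and adhesion genes ICAM2 (1.44), ICAM1 (1.52), RGS16 (1.51), CXCR3 (1.59), GPR84 (2.77), PTGER2 (4.13), GPSM1 (4.68), JUN (3.26) and PPP1R16B (2.41), and in BIK (1.20), CMPK2 (1.25), USP18 (1.96), PAQR8 (1.45), ABCA2 (1.46), TUBA1A (1.47), ENO2 (1.54), EMID1 (1.86), NXPH4 (5.33) and CSPG5 (5.87). Each of the 12 libraries was left out in turn, and the call was lost for 7 of them in GMEB1 (-0.85 to -1.22 over all), 6 in ICAM1 (1.15 to 1.78), 9 in CXCR3 (1.21 to 1.82) and 8 in PAQR8 (1.09 to 2.07), daunorubicin replicate 2 of MOLM13 among them in all 4 genes. It was also lost for 6 in ENO2 (1.22 to 1.82), without that library among them. NXPH4, a neurexophilin, was at 5.86 CPM after daunorubicin and 1.14 CPM after DMSO in HL60, and at 0.0373 and 0.333 CPM in MOLM13, with both MOLM13 groups at or near the floor of 3 counts. Of the other genes with values in the text, MPO (1.09), TYMS (1.53), RRM2 (2.88), RAB3A (1.28) and MDM2 (-2.46) passed too, and so did, at under 1 CPM in both HL60 groups, CCR2 (2.48), KLF2 (2.54), IL1RN (1.83), COL1A1 (2.80), PRF1 (-3.15) and RPH3AL, which had no counts after daunorubicin in MOLM13. The call was lost for 9 of the 12 libraries in COL1A1 and in PRF1 and for 10 in RPH3AL.

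A transcript that matched no gene of the annotation and has the length of the FAM120B transcript had 936, 1302 and 1078 counts in daunorubicin replicates 1, 2 and 3, above the 314, 416 and 421 counts of the DMSO libraries. It was outside the gene counts, and a comparison of its groups was not tested.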

How the results depend on the processing

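For daunorubicin against DMSO, the 903 higher and 94 lower calls became 2016 and 1461 with no fold threshold, and 165 were lower with no low-count filter. With 1 library left out, 572 to 1164 were higher and 69 to 150 lower, the low ends without daunorubicin replicate 2 and the high ends without daunorubicin replicate 3. RLE scaling, DESeq2, the stricter filter, the newer quasi-likelihood, all 12 HL60 libraries, the length offset and protein-coding genes alone gave 715 to 1055 higher and 64 to 106 lower. With the replicate number as a block 978 were higher and 126 lower, no called gene named here lost its call, and the EGFR, AP-1, NF-kB, histone and interferon-stimulated lists gained calls. For HL60 minus MOLM13 the block gave 1064 positive and 480 negative, and leaving out 1 library 889 to 1099 and 326 to 485. For daunorubicin against cytarabine no filter gave 163 higher and 690 lower, the block 118 and 632, and leaving out 1 library 38 to 90 higher and 239 to 435 lower, with both low ends without daunorubicin replicate 3. No named call changed direction under these alternatives. Of 121 called named genes, 41 lost the call when some library was left out and 20 under another alternative. Losses given gene by gene above are mostly those with a library left out. Genes under 1 CPM rest on few counts, and with 3 libraries a group small folds at that depth were not detectable. The cause of these changes was not tested.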
